A study of Saccharomyces cerevisiae with 8 samples.

Results

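Budding yeast of the H3 shutoff strain DCB200.1 were compared after 3 h in dextrose with the same strain taken at the move to dextrose (0 h). The comparison rested on 4 of the 8 MNase-seq libraries of the series, namely every library labelled with that strain: replicates 3 and 4, each at 3 h and at 0 h. In DCB200.1 the histone H3 gene HHT1 is deleted, and HHT2, the only H3 gene left, stands behind the GAL1 promoter, which is active in galactose and repressed in dextrose. The other 4 libraries, replicates B and C at 3 h and 0 h, came from the wildtype strain YEF473A with both H3 genes, and went through the same change of medium. All cells were grown in rich galactose medium, filtered, washed and put into dextrose medium, and were fixed with formaldehyde either 3 h later or immediately. In each H3 shutoff replicate the 3 h and 0 h samples were drawn from one culture, so the times were compared within replicates. By 3 h without H3 synthesis the shutoff cells have replicated their DNA and stopped in G2/M, and wildtype cells keep dividing, so that H3 loss and cell cycle stage cannot be told apart.

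A nucleosome is a length of DNA wound around a histone octamer that includes a pair of H3 molecules, and nucleosomes along genes form regular arrays that begin at the nucleosome-depleted region of the promoter. New nucleosomes are needed at each replication, and without new H3 the old ones must cover both daughter molecules. Micrococcal nuclease (MNase) digests the DNA between nucleosomes. The middle of a protected fragment, the read center, then marks where a nucleosome was, and a narrow pile of read centers marks a nucleosome that sat at the same place in most cells. The width of that pile, the SD of the read centers, is called fuzziness.

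Each library held the same number of fragments, drawn by the authors at random. A count of read centers was therefore a share of the library, and fewer nucleosomes in all or less DNA recovered could not be seen. Mean fragment length was 158.0 and 162.9 bp at 3 h in replicates 3 and 4, against 157.2 and 152.9 bp at 0 h. In wildtype it was 154.6 and 156.0 bp at 3 h, against 150.6 and 146.0 bp at 0 h. The shift was longest in replicate 4 and in wildtype C.

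Tiles that separate all libraries of the strains were looked for. A single stretch of the genome, chr2:256201-257000 in sacCer1, was lower in every H3 shutoff library than in every wildtype library over at least 3 consecutive 200-bp tiles. It held 18 and 12 read centers at 3 h and 22 and 19 at 0 h in H3 shutoff replicates 3 and 4, against 118 and 145 at 3 h and 128 and 174 at 0 h in wildtype B and C. One further 200-bp tile, chr14:576001-576200, held 0 read centers in all 4 H3 shutoff libraries and 40 to 55 in the wildtype libraries. HHT1 lies on chromosome 2 and HHT2 on chromosome 14. Only the chromosomes were matched, since the positions of both genes in this build were not used here, and neither stretch was shown to be the altered gene.

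Some libraries stood apart for another reason. At 131 tiles replicate 3 had at most 2 read centers at both times while replicate 4 had at least 20 at both, and no tile showed the opposite. Of these tiles 47 lay within 20 kb of a chromosome end, and 116 had the same split within wildtype (present at 0 h in B and at 3 h in C, missing at 3 h in B and at 0 h in C). The fit below was therefore also read with the wildtype 3 h libraries exchanged. The exchange was made in that fit alone. Wildtype class changes, their SDs and the wildtype values at chromosome ends keep the labelled pairing. With 2 replicates against 2, the smallest p an exact two-sided permutation test can give is 0.333, so no class difference below could pass a threshold of 0.05 and each is given with its spread. The sources do not say that wildtype B and C were separate cultures, so p-values may measure only technical spread.

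At the sharpest nucleosomes read centers were much fewer at 3 h, and at the fuzziest they were about as many or slightly more. Nucleosome centers and their classes were taken from the deposited 0 h calls of the other replicate, so that counting error in the replicate being measured did not set its class, and each measure was cut into 5 classes of equal size. The sharpest class, with an SD of at most 25.3 bp for replicate 3 and 25.6 bp for replicate 4, averaged 53.6 and 57.6 read centers within 50 bp of the center at 3 h, against 80.7 and 78.6 at 0 h. The log2 change was −0.52 ± 0.10 (SD, n = 2), against −0.04 ± 0.05 in wildtype (n = 2). The change then shrank step by step over the next 3 classes, at −0.40 ± 0.03, −0.22 ± 0.01 and −0.05 ± 0.00. In the fuzziest class, with an SD of at least 39.1 and 40.1 bp, replicates 3 and 4 averaged 44.6 and 45.8 read centers at 3 h, against 42.3 and 43.9 at 0 h, a log2 change of 0.07 ± 0.01 against 0.01 ± 0.02 in wildtype. Both replicates gave this order and did not overlap between neighboring classes, and the wildtype classes stayed between −0.04 and 0.01. Over all nucleosomes the log2 change was −0.25 ± 0.03 in H3 shutoff and −0.02 ± 0.01 in wildtype. Since the windows sit where nucleosomes were at 0 h, a lower count there means that read centers lay elsewhere at 3 h.

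**Figure D1:**
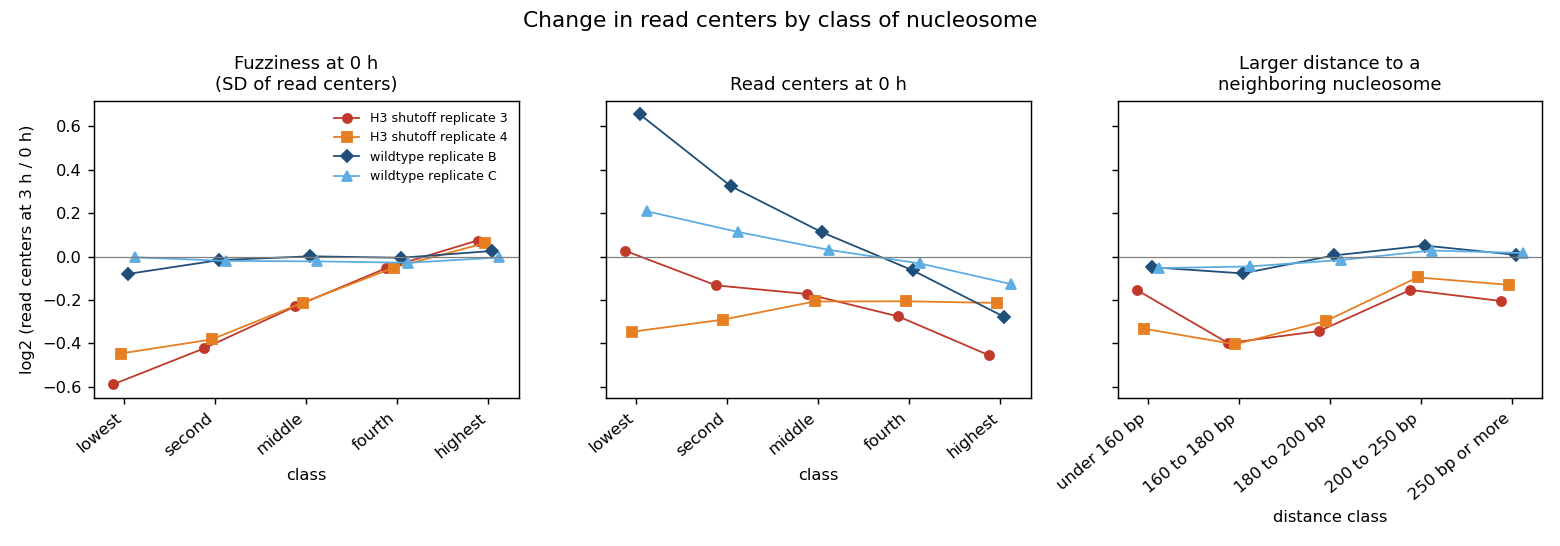
Log2 ratio of summed read centers at 3 h over 0 h within 50 bp of nucleosome centers, for each replicate of H3 shutoff and wildtype, by 5 classes of 0 h count, by 5 classes of 0 h fuzziness and by distance to the farther neighbor. In H3 shutoff the points climb from −0.59 and −0.45 in the sharpest class to 0.07 and 0.06 in the fuzziest, while those of the count classes run in opposite directions in the 2 replicates.

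How many read centers a nucleosome had at 0 h gave no such order. In replicate 3 the log2 change was 0.03 in the lowest class of 0 h count and −0.46 in the highest. In replicate 4 it was −0.35 in the lowest class and −0.21 in the highest. The replicates therefore disagreed on which end of the count range lost more, and wildtype moved by 0.43 ± 0.32 in the lowest class and −0.20 ± 0.11 in the highest. The length of DNA protected at 0 h behaved likewise, with −0.15 for the shortest and −0.38 for the longest class in replicate 3, and −0.34 and −0.16 in replicate 4. Fuzziness ordered the changes within classes of similar count. Among nucleosomes of middle count the log2 change was −0.63 ± 0.08 in the sharpest class and 0.11 ± 0.03 in the fuzziest. Among those of highest count it was −0.51 ± 0.19 and 0.19 ± 0.24. The order held in the upper 4 count classes and was absent in the lowest, where the change was −0.09 ± 0.20 in the sharpest class and −0.10 ± 0.28 in the fuzziest.

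Average profiles, drawn after these class values were known, show the same nucleosomes base by base. In the sharpest class the density of read centers at the nucleosome center was 1.97 and 2.31 times the genome mean at 3 h in replicates 3 and 4, against 4.18 and 3.98 times at 0 h. In the trough beside it the density was 0.633 and 0.585 at 3 h, against 0.204 and 0.201 at 0 h. The peak thus lost height and the trough filled, in both replicates. In wildtype the same class stood at 4.69 and 4.44 at 3 h, against 4.99 and 4.47 at 0 h, with troughs of 0.115 and 0.0945 at 3 h and 0.103 and 0.0889 at 0 h. In the fuzziest class the H3 shutoff peaks were 1.37 and 1.56 at 3 h, against 1.39 and 1.41 at 0 h, and the troughs 0.977 and 0.962 against 0.810 and 0.844.

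**Figure D2:**
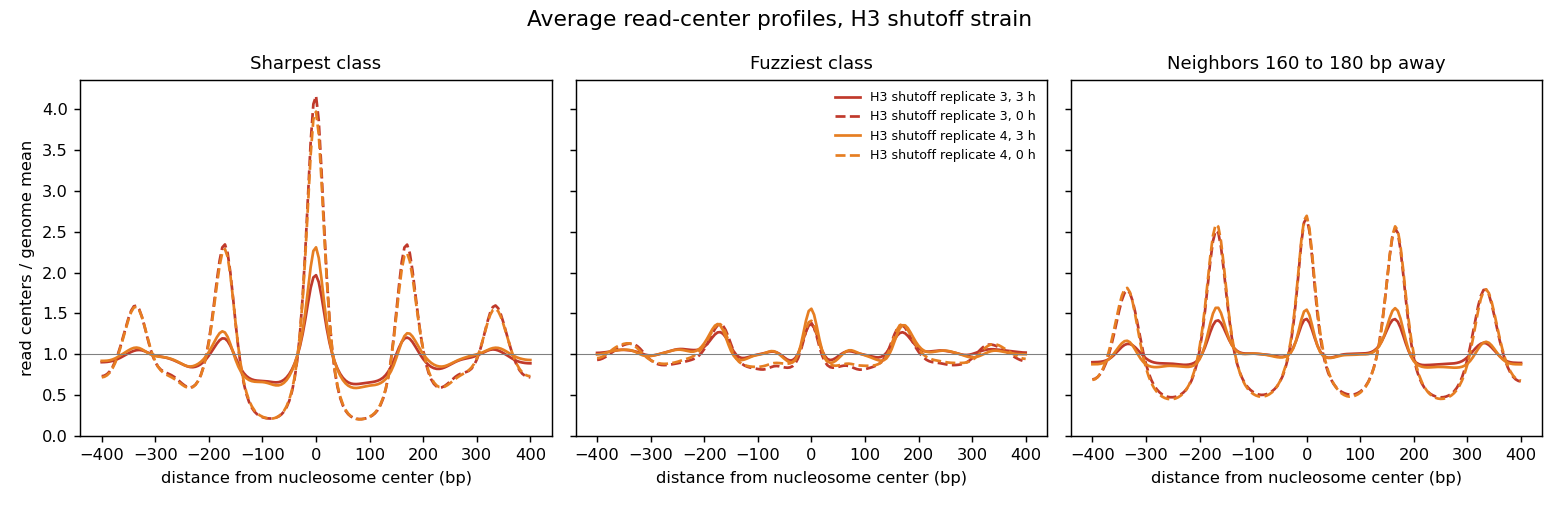
Average read-center density (genome mean = 1) against distance from the 0 h nucleosome center in bp, for H3 shutoff replicates 3 and 4 at 3 h (solid) and 0 h (dashed), in the sharpest class, the fuzziest class and nucleosomes whose farther neighbor is 160 to 180 bp away. At 3 h the sharpest peaks reach 1.97 and 2.31 instead of 4.18 and 3.98, and the central peaks of the 160 to 180 bp class reach 1.43 and 1.55 instead of 2.67 and 2.70.

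Linkers, the stretches between neighboring nucleosomes, held more read centers at 3 h in both replicates. They were measured as 31 bp around the midpoint of called centers 150 to 200 bp apart. Linkers held 11.1 and 9.97% of all read centers at 3 h in replicates 3 and 4, against 6.04 and 5.45% at 0 h. Their density was 0.961 and 0.944 of the genome mean at 3 h, against 0.524 and 0.515 at 0 h, so that linkers were nearly as populated as the average base. The log2 change was 0.87 ± 0.00 in H3 shutoff and 0.06 ± 0.02 in wildtype, where the density was 0.358 and 0.383 at 3 h, against 0.340 and 0.373 at 0 h. In wider gaps the strains were not separated. Where called centers lay at least 250 bp apart, the DNA over 73 bp from both centers had a density of 0.642 and 0.597 at 3 h, against 0.505 and 0.554 at 0 h. That log2 change of 0.23 ± 0.17 overlapped the wildtype change of 0.14 ± 0.08. Gaps of this width include nucleosome-depleted regions as well as stretches with no clear call.

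In windows of 100 bp, the deficit at 3 h was larger in tight arrays than at nucleosomes with open space beside them. Each nucleosome was classed by the larger of the distances to its neighbors. With the farther neighbor 160 to 180 bp away, the log2 change was −0.40 ± 0.00 in H3 shutoff and −0.06 ± 0.02 in wildtype. It was −0.32 ± 0.03 at 180 to 200 bp, −0.13 ± 0.04 at 200 to 250 bp and −0.17 ± 0.05 at 250 bp or more, against −0.01 ± 0.01, 0.04 ± 0.02 and 0.01 ± 0.01 in wildtype. Below 160 bp the replicates differed, at −0.15 and −0.33. The difference between the 160 to 180 bp class and that of 250 bp or more was −0.23 ± 0.06, against −0.07 ± 0.02 in wildtype. In windows of 150 bp in place of 100 bp it was −0.0932 ± 0.0395, which overlapped the wildtype difference of −0.0644 ± 0.0106. The strains were thus not separated by spacing in the wider window. The average profile of the 160 to 180 bp class had much less contrast at 3 h. Its center and trough densities were 1.43 and 0.979 at 3 h in replicate 3, against 2.67 and 0.501 at 0 h, and 1.55 and 0.969 at 3 h in replicate 4, against 2.70 and 0.478 at 0 h. Nucleosomes beside a gap of 250 bp or more kept part of their peak, with 1.85 and 0.748 at 3 h in replicate 3, against 2.64 and 0.514 at 0 h, and 2.09 and 0.724 at 3 h in replicate 4, against 2.52 and 0.520 at 0 h.

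An order by distance from such a gap, added after the data had been seen, separated the first nucleosome from all that follow. The log2 change in read centers was −0.17 ± 0.05 at the first nucleosome, −0.29 ± 0.02 at the second, −0.30 ± 0.01 at the third, −0.29 ± 0.01 at the fourth and −0.30 ± 0.02 farther in. Wildtype values lay between −0.06 and 0.01. Fuzziness followed the same step, with a median SD 2.88 ± 0.91 bp larger at 3 h for the first nucleosome and 4.40 to 5.42 bp larger for the others. From the second position inward the read-center changes were close. The median SD change was smaller farthest in, at 6.16, 5.74 and 5.04 bp for the third, the fourth and the later nucleosomes in replicate 3 and 4.67, 4.36 and 3.76 bp in replicate 4.

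Fuzziness itself was higher at 3 h across the genome. The median SD of the deposited calls was 37.4 and 37.2 bp at 3 h in H3 shutoff replicates 3 and 4, against 33.2 and 32.7 bp at 0 h, a change of 4.38 ± 0.27 bp. In wildtype it was 28.0 and 28.1 bp at 3 h, against 27.5 bp in both at 0 h, a change of 0.53 ± 0.03 bp. H3 shutoff chromatin was thus already fuzzier than wildtype at 0 h. Calls with an SD under 20 bp made up 1.88 and 1.62% of H3 shutoff calls at 3 h, against 6.42 and 6.32% at 0 h. Calls with an SD over 40 bp made up 34.3 and 35.0% at 3 h, against 20.4 and 16.5% at 0 h.

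The widening was seen at nucleosomes that had been sharp. At fixed 0 h centers of the sharpest class, the median SD of read centers within 73 bp was 31.6 and 29.6 bp at 3 h, against 22.0 and 21.9 bp at 0 h, a median change per nucleosome of 8.47 ± 1.47 bp (wildtype 0.16 ± 0.48 bp). The next classes had changes of 6.91 ± 1.06, 4.37 ± 0.97 and 1.87 ± 1.04 bp. The fuzziest had one of 0.11 ± 0.79 bp, against 0.33 ± 0.32 bp in wildtype, so that no change was seen there beyond the spread. An SD taken within 73 bp is bounded, and in this class it was already 38.8 and 38.9 bp at 0 h. The measure left little room for widening there, so a widening could have been missed. Nucleosomes with an SD under 20 bp in the other replicate, 3340 and 3071 of them, show how few stayed sharp. Of these, 29.2 and 41.5% had an SD under 25 bp at 3 h, against 92.7 and 87.0% at 0 h. The wildtype shares were 93.7 and 92.0% at 3 h, against 93.6 and 92.7% at 0 h. By spacing, the median change was 7.40 ± 0.51 bp in the 160 to 180 bp class and 1.58 ± 1.17 bp at 200 to 250 bp. By 0 h count it was 1.69 ± 1.20 bp in the lowest class and 7.03 ± 1.16 bp in the highest. By protected length the replicates ran in opposite orders, with 4.37 bp in the shortest and 5.45 bp in the longest class in replicate 3, and 4.10 and 3.02 bp in replicate 4.

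Fewer than 1 in 2 nucleosomes were called again at the same place. Of the 0 h calls, 46.1 and 41.1% in replicates 3 and 4 had a 3 h call within 20 bp, against 76.7 and 73.9% with a 0 h call of the other replicate within 20 bp. In wildtype 73.1 ± 0.4% were kept at 3 h. In H3 shutoff 20.1 and 23.1% of the 0 h calls had no 3 h call within 73 bp. Sharp nucleosomes kept their place more often than fuzzy ones in both strains, and in H3 shutoff their windows had the larger deficit of read centers. The sharpest class was kept at 58.8 ± 1.7%, against 93.2 ± 0.8% in wildtype, and the fuzziest at 36.7 ± 2.5%, against 47.7 ± 1.4%. Set against the same class of wildtype, the kept share was lower by more in the sharper classes than in the fuzziest. Classes were cut within each strain, so their limits differ. The sharpest class reached an SD of 25.6 and 25.3 bp in the calls of H3 shutoff replicates 3 and 4, and 19.8 and 20.1 bp in wildtype B and C. The fuzziest class, kept at only 47.7% in wildtype, had less room for a lower share. The difference was −34.5 percentage points in the sharpest class, −43.2 in the next and −11.1 in the fuzziest. The tight arrays of 160 to 180 bp kept 34.4 ± 0.3% of their positions, against 80.2 ± 1.8% in wildtype. Nucleosomes next to a gap of 250 bp or more kept 50.3 ± 1.5%, against 72.6 ± 2.8%. Farther from the gap, the second to the fourth nucleosomes kept 39.5 to 40.9%.

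The calls also lay farther apart at 3 h. H3 shutoff had 57450 and 55959 calls at 3 h in replicates 3 and 4, against 60253 and 62470 at 0 h. Wildtype also had fewer, with 62848 and 62228 at 3 h in B and C, against 64594 and 66048 at 0 h. The change in number, −4657 ± 2622 in H3 shutoff, overlapped that of −2783 ± 1467 in wildtype. The median distance between neighbors in H3 shutoff was 191 and 197 bp at 3 h, against 178 and 174 bp at 0 h. In wildtype it was 171 and 172 bp at 3 h, against 170 and 169 bp at 0 h. Distances of 150 to 180 bp, the repeat of yeast arrays, made up 38.7 and 34.1% at 3 h, against 52.3 and 57.2% at 0 h (wildtype 62.1 and 61.4% at 3 h, 60.2 and 55.8% at 0 h). Distances of 250 bp or more made up 22.8 and 25.6% at 3 h, against 18.2 and 15.0% at 0 h. That last change, 7.60 ± 4.19 percentage points, overlapped the wildtype change of 5.36 ± 2.41. The caller removes all read centers within one protected length of a called center, so that the shortest distance allowed follows the fragment length. The 10th percentile of distances was 161 and 165 bp at 3 h, against 159 and 155 bp at 0 h, and the part of fragment length in the median distance was not tested.

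**Figure D3:**
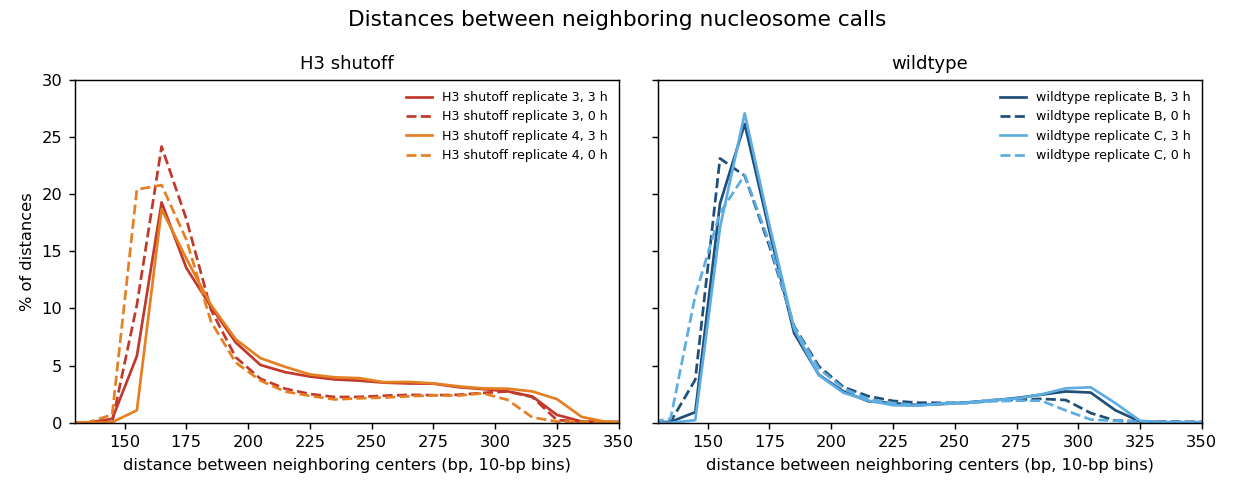
Share of distances between neighboring deposited calls, in percent per 10-bp bin, against the distance in bp, at 3 h (solid) and 0 h (dashed), for the H3 shutoff replicates and the wildtype replicates in separate panels. The H3 shutoff peak near the array repeat is lower at 3 h, with 38.7 and 34.1% of distances at 150 to 180 bp, against 52.3 and 57.2% at 0 h, and wildtype keeps its peak.

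The same comparison was then tested window by window with edgeR's quasi-likelihood test over all 8 libraries, with the replicate as a block and Benjamini-Hochberg adjustment. Of 60321 windows of 100 bp around centers called on the pooled libraries, 13294 (22.0%) fell and 3137 (5.20%) rose in H3 shutoff. In wildtype 722 (1.20%) fell and 304 (0.504%) rose. The change differed between strains at 12631 windows, where 9830 (16.3%) were lower and 2801 (4.64%) higher in H3 shutoff. The median log2 change was −0.35, against 0.06 in wildtype. The split of the calls depends on the scale and on where read centers are counted. With TMM scaling, which sets the typical window to no change (median −0.02), 4565 windows (7.57%) fell and 6382 (10.6%) rose. In tiles of 200 bp across the whole genome, with the scaling of the main fit, 3319 fell and 2846 rose (median −0.06). The 100-bp windows sit where read centers of the pooled libraries were dense, and the part of this placement in the excess of falls was not tested. DESeq2 called 192 (0.318%) and 971 (1.61%). Leaving out replicate 3 gave 4569 and 1307 and leaving out replicate 4 gave 2040 and 202, each fit then resting on 1 H3 shutoff pair whose spread was assumed to be that of the wildtype pairs.

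By fuzziness at 0 h in wildtype, a measure taken from libraries of the other strain, 44.7% of the sharpest windows fell and 1.00% rose. The shares that fell were 31.6, 19.9 and 10.95% in the classes between, and 3.75% fell in the fuzziest class while 12.3% rose. Under TMM scaling 16.9% of the sharpest fell and 2.23% rose, and 0.876% of the fuzziest fell and 23.5% rose. The order from sharp to fuzzy was the same under both scalings. It could hardly differ, since TMM scales each library by a single factor and so moves only the point of no change. By wildtype 0 h count, 4.84% fell in the lowest class and 32.9% in the highest, and a window with few read centers gives the test less to work with. By spacing, 28.2% fell and 2.46% rose in the 160 to 180 bp class, against 17.8 and 7.70% at 250 bp or more.

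The window with the largest fall was on chromosome 4 (chr4:436857-436957). It held 3 and 7 read centers at 3 h in replicates 3 and 4, against 72 and 50 at 0 h (log2 change −3.56, SE 0.47, edgeR adjusted p = 0.00044). The wildtype libraries held 96 and 80 at 3 h, against 29 and 66 at 0 h. Both H3 shutoff replicates were almost emptied there, and neither wildtype replicate was. Of the 10 windows with the largest falls, 4 lay on chromosomes for which a transcript annotation was used. One, at chr11:277824-277924, is within 300 bp upstream of CYT2, the lyase that attaches heme to cytochrome c1, and of SRX1, sulfiredoxin. It had 8 and 5 read centers at 3 h, against 45 and 51 at 0 h. A window at chr11:458383-458483 lies between FOX2, an enzyme of peroxisomal fatty acid oxidation, and TOF2, a nucleolar protein, and had 9 and 4 at 3 h, against 53 and 38 at 0 h. The others are inside genes. Within RPL15B, for a large-subunit ribosomal protein, the window at chr13:510287-510387 had 8 and 4 at 3 h, against 46 and 37 at 0 h. Within CPR6, a cyclophilin that binds Hsp90, the window at chr12:573160-573260 had 8 and 5 at 3 h, against 58 and 32 at 0 h. In all 4 the H3 shutoff times did not overlap and the wildtype log2 change did not pass the test.

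Among the windows with the largest rises, low counts at 0 h follow from the choice by fold. A window at chr10:604248-604348 had 54 and 36 read centers at 3 h in replicates 3 and 4, against 5 and 0 at 0 h (log2 change 4.26, SE 0.82, edgeR adjusted p = 0.0021), and wildtype had 22 and 2 at 3 h, against 13 and 2 at 0 h. The promoter window of DCW1, a cell wall mannosidase, had 62 and 37 at 3 h, against 8 and 3 at 0 h. That of COX12, a subunit of cytochrome c oxidase, had 51 and 42 at 3 h, against 7 and 4 at 0 h. At these 3 windows the H3 shutoff times did not overlap. The window upstream of AAT2, an aspartate aminotransferase, had 85 and 115 at 3 h, against 24 and 5 at 0 h. A window between FLO1, a cell surface flocculin, and YAR047C had 42 and 46 at 3 h, against 13 and 1 at 0 h. Among the 10 windows with the largest rises, wildtype B had more read centers than wildtype C at both times in all 10. Wildtype 3 h was above 0 h in B in all 10, and in C in all but chr10:604248-604348, where both times had 2. The change differed from the wildtype change at only 2 of them, the chromosome 10 window and that of AAT2. Without replicate 4, 8 of the 20 named windows no longer passed.

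Read centers within 10 kb of the chromosome ends were more frequent at 3 h in both replicates. Within 5 kb of an end, replicates 3 and 4 had 82658 and 99375 read centers at 3 h, against 74960 and 79269 at 0 h. The log2 change was 0.23 ± 0.13, against −0.17 ± 0.07 in wildtype (−0.22 and −0.12). From 5 to 10 kb it was 0.17 ± 0.08, against −0.01 ± 0.01 in wildtype. The strains did not overlap in either bin. Beyond 10 kb the H3 shutoff change was within 0.01 of zero. Of the 32 chromosome ends, counted over their outer 20 kb, 22 were higher and 5 lower at 3 h in both H3 shutoff replicates, against 10 higher and 8 lower in both wildtype replicates. The wildtype counts rest on the labelled pairing, which is in doubt, and the ends were not counted with the 3 h libraries exchanged. In the window test 14.8% of windows within 5 kb rose and 14.4% fell, against 5.01 and 22.2% beyond 100 kb. Ends of yeast chromosomes carry repeated sequences and are bound by the Sir silencing proteins, and reads from near-identical copies can be placed at any of them, so that single ends are uncertain. Without tiles of at most 2 read centers in any library, the change within 5 kb stayed at 0.23 ± 0.13. Whole chromosomes hardly changed. The widest values were 0.05 ± 0.01 for chromosome 14 and −0.05 ± 0.01 for chromosome 6.

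**Figure D4:**
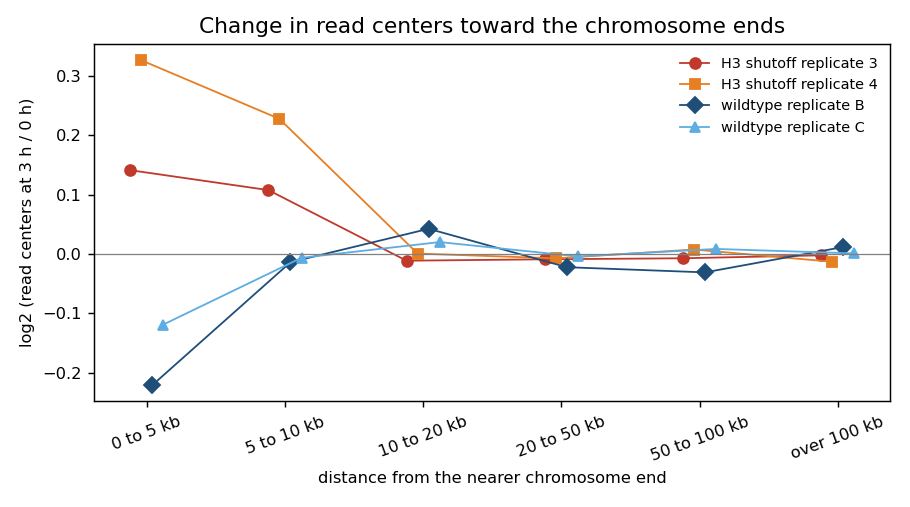
Log2 ratio of read centers at 3 h over 0 h against distance from the nearer chromosome end, for H3 shutoff replicates 3 and 4 and wildtype B and C. Within 5 kb the H3 shutoff points are 0.14 and 0.33 and the wildtype points −0.22 and −0.12, and all 4 lie near zero beyond 10 kb.

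Promoters were examined where a transcript start was listed, on chromosomes 1, 11, 12 and 13 and part of 14. Over the 300 bp upstream of 1594 tested starts, 170 (10.7%) fell and 119 (7.47%) rose in H3 shutoff, with a median log2 change of −0.07, against 18 (1.13%) and 53 (3.32%) in wildtype with a median of 0.25. Against the wildtype change, 187 (11.7%) were lower and 57 (3.58%) higher in H3 shutoff. These counts depended on the fit. Under TMM scaling 102 (6.40%) fell and 162 (10.2%) rose, with DESeq2 17 (1.07%) and 34 (2.13%), with the wildtype 3 h libraries exchanged 16 and 1, without replicate 3 43 and 61, and without replicate 4 17 and 1. Each promoter value below carries that limit. Stretches upstream of divergent starts can also overlap, as for TOS4 and RPL37A and for REH1 and RPS29A. Such pairs share read centers and are not separate results.

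The promoters with the largest falls come first. Upstream of GAD1, glutamate decarboxylase, replicates 3 and 4 had 75 and 64 read centers at 3 h, against 193 and 184 at 0 h (log2 change −1.44, SE 0.19, edgeR adjusted p = 6.9e-08). SNZ1, an enzyme of vitamin B6 synthesis, had 45 and 30 at 3 h, against 98 and 113 at 0 h. TAG1 had 54 and 44 at 3 h, against 155 and 129 at 0 h. In all 3 the times did not overlap, and the wildtype log2 changes, 0.12, 0.39 and 0.00, did not pass the test. YML084W had 66 and 36 at 3 h, against 156 and 142 at 0 h. FET4, a low-affinity iron transporter, had 31 and 35 at 3 h, against 88 and 91 at 0 h. TOS4, a factor that binds promoters at the start of the cell cycle, had 32 and 15 at 3 h, against 65 and 90 at 0 h. The remaining members of the 10 largest falls were RPS22B, NGK1, PSR2 and JJJ1, with log2 changes of −1.68, −1.65, −1.58 and −1.53.

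Among the largest rises, low counts at 0 h again follow from the choice. Upstream of PRE5, a proteasome subunit, there were 53 and 49 read centers at 3 h, against 11 and 2 at 0 h (log2 change 3.07, SE 0.77, edgeR adjusted p = 0.0028), and wildtype had 8 and 4 at 3 h, against 4 and 4 at 0 h. PUT3, the activator of proline utilization genes, had 173 and 159 at 3 h, against 57 and 16 at 0 h, with 135 and 40 at 3 h in wildtype, against 91 and 7 at 0 h. PUT3 was called in wildtype as well (log2 change 1.07), as was ATG26 (1.99). RPL6B, for a large-subunit ribosomal protein, had 149 and 118 at 3 h, against 39 and 20 at 0 h, with 62 and 29 at 3 h in wildtype, against 63 and 16 at 0 h. Of the 10 largest rises, only that of RPL6B also differed from the wildtype change. The others were ATG26, a sterol glucosyltransferase, CCC1, a vacuolar iron transporter, GYL1, MRPL15, a protein of the mitochondrial ribosome, MYO5, a type I myosin, REH1, a factor of ribosome assembly, and GIS3, with log2 changes of 1.88 to 2.23.

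Ribosomal protein genes are among the most transcribed genes of growing yeast and have wide depleted promoters. Of their 35 tested promoters, 17 rose and 1 fell, where 7.47% of all promoters rose and 10.7% fell, and 33 of 35 had a positive log2 change. The median was 1.14, against −0.07 over all promoters, and in wildtype it was 0.41. RPL37A had 120 and 126 read centers at 3 h, against 50 and 22 at 0 h. RPS16A, on the small subunit, had 138 and 113 at 3 h, against 59 and 20 at 0 h. RPL31B had 155 and 250 at 3 h, against 86 and 91 at 0 h, and in wildtype 97 and 73 at 3 h, against 160 and 109 at 0 h. These promoters gained in both H3 shutoff replicates and RPL31B went the opposite way in wildtype. The exception was RPS22B, with 21 and 27 at 3 h, against 76 and 78 at 0 h. The change was called different from the wildtype change, with higher values in H3 shutoff, at 7 of the promoters (RPL6B, RPL37A, RPL31B, RPS1B, RPS17A, RPL13B and RPS16A), and lower at RPS22B. The number that rose was 19 under TMM scaling, 9 with DESeq2, 10 with no replicate block, 11 of 32 tested without replicate 3, and 0 both without replicate 4 (32 tested) and with the wildtype 3 h libraries exchanged. Without replicate 4 the median was still 0.79, and 27 of 32 were positive.

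**Figure D5:**
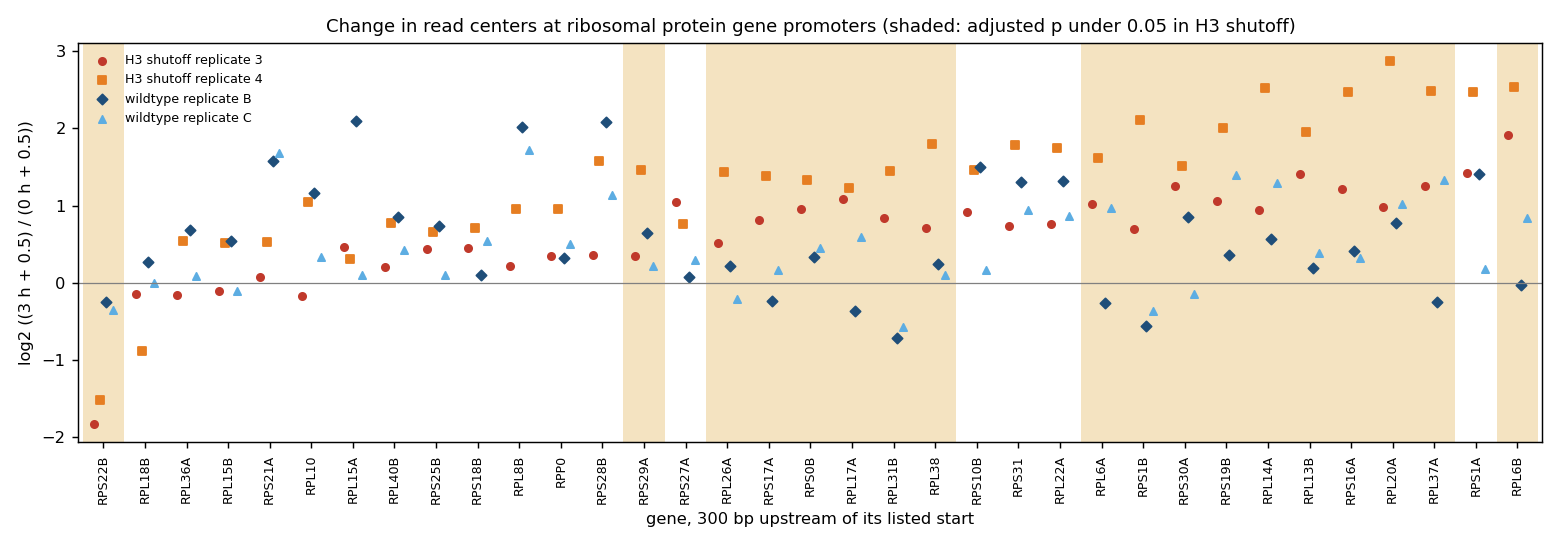
Log2 of (3 h + 0.5) over (0 h + 0.5) read centers in the 300 bp upstream of 35 ribosomal protein genes, a point for each replicate of H3 shutoff and wildtype, with promoters of edgeR adjusted p under 0.05 in H3 shutoff shaded. Of these, 17 rose and 1, RPS22B, fell.

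The other gene groups were small and gave few calls. Their counts stand beside 10.7% that fell and 7.47% that rose over all promoters tested, and with so few members no share is read from them. Of 10 glucose-repressed genes 2 fell and none rose. IDP2, an isocitrate dehydrogenase, had 126 and 119 read centers at 3 h, against 209 and 193 at 0 h. HXT2, a hexose transporter, had 124 and 129 at 3 h, against 206 and 173 at 0 h, and in wildtype 211 and 378 at 3 h, against 123 and 142 at 0 h. HXT2 thus fell in H3 shutoff and rose in wildtype, though under TMM scaling neither IDP2 (edgeR adjusted p = 0.081) nor HXT2 (0.15) passed in H3 shutoff. Of 5 chaperones 2 fell. HSP104, a disaggregase, had 49 and 48 at 3 h, against 103 and 87 at 0 h, and SSA1, an Hsp70, had 52 and 42 at 3 h, against 83 and 85 at 0 h. Of 4 stress response genes only GAD1 fell. Of 2 phosphate genes PHO84, the high-affinity phosphate transporter, rose, with 127 and 164 at 3 h, against 58 and 69 at 0 h, and it was called in wildtype too (161 and 105 at 3 h, against 107 and 42 at 0 h). None of 6 glycolysis genes and neither of 2 flocculins passed the test in H3 shutoff. The flocculin FLO1 was called in wildtype, where it rose, and its change differed between the strains.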

How the data were processed

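Paired-end MNase-seq fragments of 100 to 200 bp, aligned to sacCer1 with Bowtie 0.12.6 and subsampled to equal numbers, were deposited by the authors as coordinates, with ribosomal DNA reads removed. The authors also deposited nucleosome calls with, per the file headers, a count of read centers within 50 bp of the center, the SD of read centers and the mean fragment length (whole-number counts and values in bp). Calls are per library. Same-coordinate fragments made up 8.84 to 14.0% of a library.

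From the coordinates, read centers (fragment midpoints) were counted in 100-bp windows, 200-bp tiles and promoters. Features whose total over all libraries reached 80 read centers entered edgeR 4.0.16 in R 4.3.3, with the replicate as a block, no further scaling and a threshold of 0.05. DESeq2 1.42.0, TMM and the alternatives of the closing section were also run. Tested on simulated data, the windows fit recovered 187 of 200 features changed 4-fold with 7 false calls, and the promoter fit 197 of 200 with 8. The simulated counts were independent, with a single mean per feature, a common spread, no replicate effect and no doubtful pairing. They show that the fit runs as intended, and the rate of false calls in the real data cannot be read from them. For SDs at fixed 0 h centers, nucleosomes needed 20 read centers at both times, and the average profiles were not cut in this way. In the sharpest class the profiles held 12482 and 12038 nucleosomes for H3 shutoff replicates 3 and 4, and the SDs 11153 and 10165. The block comes from the study's methods, which split a culture between times. Deviations of same-numbered H3 shutoff libraries correlated at r = 0.440 over tiles (0.193 without tiles of at most 2 read centers in a library), those of wildtype at −0.120 (0.122). Named windows and promoters were the 10 largest falls and 10 largest rises called in H3 shutoff, with the same direction in both replicates, a mean of at least 40 read centers at the higher time and 1 per 1 kb, plus members of the gene lists. The members and lists were chosen with earlier results of these data known. Gene symbols came from a table of a later assembly used for names only, which matched 1462 of the 1614 listed starts. Chromosome 10 was left out of the promoters because its listed starts were offset. The profiles and the order from a gap were added after the data had been seen.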

Additional observations from a re-analysis of the deposited data

Results flagged for a closer look

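Results are listed here where the change in H3 shutoff differed from the change in wildtype, by the contrast of both changes in the edgeR fit (Benjamini-Hochberg adjusted p under 0.05). This was so at 12631 windows and 244 promoters. Of the named promoters, those are listed whose change in H3 shutoff passed as well. JEN1 (−0.96) and FLO1 (−1.47) differed between the strains, but their change in H3 shutoff did not pass. Of the named windows, those with a transcript annotation are listed, with the largest fall and the largest rise. Further named falls on chromosomes without annotation also differed. The difference of the log2 changes (H3 shutoff minus wildtype) was negative at the promoters of NGK1 (−2.12), SNZ1 (−1.89), TOS4 (−1.72), YML084W (−1.71), HXT2 (−1.69), GAD1 (−1.56), FET4 (−1.56), TAG1 (−1.54), SSA1 (−1.45), RPS22B (−1.38) and HSP104 (−1.07). It was positive at RPL6B (1.90), RPL31B (1.82), RPS1B (1.82), RPL13B (1.40), RPS16A (1.39), RPL37A (1.38) and RPS17A (1.15). Among the named windows it was −4.50 at chr4:436857-436957, −3.76 between FOX2 and TOF2, −3.44 inside CPR6, −2.98 upstream of CYT2 and SRX1, −2.76 inside RPL15B, 3.69 at chr10:604248-604348 and 1.88 upstream of AAT2. DESeq2 called this difference at 2 promoters, and the edgeR fit with the wildtype 3 h libraries exchanged called 0, where 345 promoters had an unadjusted p under 0.05.

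In some classes every H3 shutoff replicate moved one way and every wildtype replicate the other. These differences could not pass an exact permutation test with 2 replicates against 2. The direction of each wildtype replicate rests on the labelled pairing. The mean difference of the log2 changes was −0.43 in the second and −0.26 in the middle class of 0 h count, −0.16 at a spacing of 200 to 250 bp and −0.18 at 250 bp or more. It was 0.40 within 5 kb of a chromosome end, 0.18 from 5 to 10 kb and −0.014 beyond 100 kb.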

How the results depend on the processing

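No window or promoter named in the report reversed its call under any alternative that was run. The largest falls and rises were chosen for a large change with the same direction in both H3 shutoff replicates. A reversal was therefore hardly possible for them, and its absence is no sign of robustness. The log2 difference between the highest and the lowest class of 0 h count did change sign, at 0.13 without replicate 3 and −0.48 without replicate 4. Window counts that fell and rose in H3 shutoff were 4565 and 6382 with TMM, 192 and 971 with DESeq2, 7008 and 1764 with fragments of 140 to 160 bp, 550 and 190 with a binomial test passed in both replicates (wildtype 55 and 17), and 3319 (fell) in 200-bp tiles. Leaving out a replicate gave 2040 to 16788 that fell and 202 to 4516 that rose. For the difference from wildtype they were 3587 and 5478 with TMM, 37 and 776 with DESeq2, 3833 and 1211 with 140 to 160 bp, and 2295 to 11813 and 574 to 4232 leaving out a replicate. With no replicate block, 11430 windows fell and 2296 rose. The exchanged wildtype pairing gave 11108 and 2448. Promoters that fell and rose were 102 and 162 with TMM, 17 and 34 with DESeq2, 77 and 55 with no replicate block, 16 and 1 with the exchanged pairing, 71 and 128 with 140 to 160 bp, and 17 to 214 and 1 to 179 leaving out a replicate. Ribosomal protein promoters that rose were 9 with DESeq2, 10 with no replicate block, 0 with the exchanged pairing and 0 to 21 leaving out a replicate. The cause of these shifts was not tested.

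Windows of 150 bp gave a log2 difference between the sharpest and the fuzziest class of −0.42, against −0.59 with 100 bp. Between spacing of 160 to 180 bp and of 250 bp or more it was −0.0932, against −0.23. The wildtype differences with 150 bp were −0.0581 by fuzziness and −0.0644 by spacing, and by spacing the strains overlapped. Linkers changed by 0.92 with centers of the same replicate and 0.93 with 140 to 160 bp, and gaps of at least 350 bp by 0.65 ± 0.67. Positions kept within 40 bp were 57.3%. Among calls with more than 20 read centers the median distance was 35.0 bp larger and the share of 250 bp or more 12.5 percentage points higher at 3 h. Of 41 named promoters that were called, 35 lost their call under the exchanged pairing and 37 without replicate 4. Each library's depth is fixed, so absolute loss of nucleosomes was out of reach.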

Other observations

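The coefficient of variation of the read-center count per deposited call was 0.673 and 0.833 at 3 h in H3 shutoff replicates 3 and 4, against 0.646 and 0.624 at 0 h. It was 0.669 and 0.589 at 3 h in wildtype B and C, against 0.842 and 0.671 at 0 h. It was thus higher at 3 h in both H3 shutoff replicates, by little in replicate 3, and lower in both wildtype replicates. The share of all read centers within 50 bp of a call of the same library was 64.2 and 65.6% at 3 h in the H3 shutoff replicates, against 73.7 and 75.1% at 0 h. In wildtype B and C it was also lower at 3 h, by less, with 80.2 and 79.7% against 83.2 and 82.9% at 0 h.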
